A study of Sus scrofa with 2 samples.

Results

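Interferon-stimulated antiviral genes encode proteins that block viruses at successive steps of infection, and 6 of them were followed in porcine ovary: MX1, MX2, ISG15, OAS1, RSAD2 and EIF2AK2. They were chosen by function, and a probe was assigned to a gene when its accession was a RefSeq accession of that gene in the pig annotation. Of the 6 genes, 5 had a probe, with 10 probes in all, out of 2459 genes that could be named on the array in this way. OAS1, which makes short oligoadenylates when it binds double-stranded RNA, was matched by no probe and was not analysed here.

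Cells that sense viral nucleic acid release interferons, which bind receptors on the same and on neighbouring cells. The receptors act through Janus kinases on transcription factors, STAT2 and IRF9 among them, which bind the promoters of the antiviral genes and switch them on. In the ovary these genes are best known from the corpus luteum of ruminants in early pregnancy, where interferon from the embryo raises them.

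The tissue was ovary from which luteal tissue had been cut away, taken on day 15 of the oestrous cycle from Yorkshire sows (the conventional pigs) and Midget minipigs, both 10 months old with at least 3 completed cycles. Each breed was measured on 1 single-colour Agilent porcine array. Ovaries came from 5 animals per breed, and it is not stated if their RNA was pooled for an array. No replicate check of any difference was therefore possible, no test was run, and the values describe these 2 arrays.

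The deposited files assign the arrays to the breeds in opposite ways. The minipig column of the deposited log2 table equalled the scanner intensities of the array labelled conventional pig after subtraction of a constant, with a largest departure of 7.46e-07. Its conventional pig column equalled the array labelled minipig in the same way, with a largest departure of 5.24e-07. The labels of the scanner files are used for every value here, and every direction would swap under those of the table. None of the 10 member probes was among the 5617 probes of that table.

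Of 43597 probes, 88.1% were well above background for the minipig and 85.2% for the conventional pig, where well above background is a flag of the scanning software. Levels are log2 intensities relative to the 75th percentile of the array, which lay at an intensity of 494 for the minipig and 513 for the conventional pig. Differences are conventional pig minus minipig, so a log2 difference of 1 is 2-fold higher on the conventional pig array. The spread between repeated spots of 42 probes gave an SD of 0.25 for a log2 difference of single spots, and each member probe was printed once. This SD covers the array surface only and holds no difference between animals. Each log2 difference that follows with ± is given with an error combined from those that the scanning software estimates on the 2 arrays, taken as independent. This error holds no difference between animals either.

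Each of the 10 member probes was well above background on both arrays, as were 88.1% of all probes for the minipig and 85.2% for the conventional pig. By that flag the 5 genes with a probe were detected on both arrays, as most probes were, RSAD2 only dimly. MX1, EIF2AK2 and ISG15 read higher on the conventional pig array, and MX2 and RSAD2 read higher on the minipig array, but the first 3 read higher on the minipig array when the arrays were centred on reference genes. None of the 5 genes and none of the 10 probes was 2-fold apart. Across the array, 19.7% of 2363 named genes were at least 2-fold apart, 11.7% being higher for the conventional pig and 7.96% for the minipig, and 16.4% of 38883 probes were. At 1.5-fold, 0 member genes and 1 member probe were apart, against 39.9% of the named genes and 37% of the probes. In such whole-tissue RNA, fewer cells of a type and less RNA per cell cannot be told apart.

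**Figure D1:**
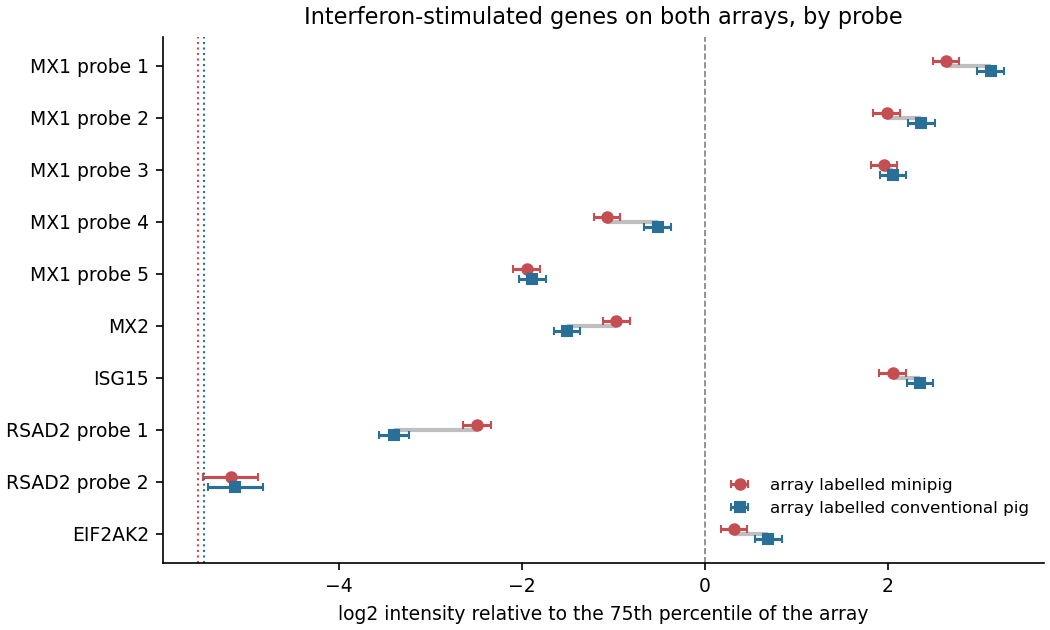
Level of each of the 10 member probes on the minipig array (circles) and the conventional pig array (squares), as log2 intensity relative to the 75th percentile of each array, with bars for the error of the scanning software and dotted lines at the lowest intensity well above background. The pairs of points lie close together, the widest gap being that of RSAD2 probe 1, from -2.49 on the minipig array to -3.40 on the conventional pig array, and RSAD2 probe 2 lies near the dotted lines.

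MX1 and MX2 are dynamin-like GTPases that assemble on the nucleocapsids of incoming viruses, MX1 being the one known for restricting influenza viruses. MX1 was read by 5 probes. On the first probe its intensity was 3068 for the minipig and 4467 for the conventional pig, a log2 difference of 0.49 ± 0.20. The probe with the widest difference gave intensities of 235 and 359 and a log2 difference of 0.55 ± 0.20. On the other 3 probes the log2 differences were 0.38, 0.10 and 0.06. All 5 probes thus read higher on the conventional pig array, and the last pair lay within the SD of repeated spots. The median over the probes was a log2 difference of 0.38, or 1.30-fold, and it was 0.21 under normexp background correction, quantile and loess normalization, inside the SD of repeated spots.

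MX2 was read by 1 probe, which pointed the other way from MX1. Its intensity was 253 for the minipig and 181 for the conventional pig, a log2 difference of -0.54 ± 0.21 and 1.45-fold higher on the minipig array. In the RefSeq annotation of the assembly Sscrofa11.1, the genes MX2 and MX1 lie beside each other with 1 uncharacterised gene between them. Whether a probe for either gene also binds the transcript of its relative was not tested.

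ISG15 is a ubiquitin-like protein that is attached to other proteins in interferon-treated cells. Its single probe gave an intensity of 2050 for the minipig and 2620 for the conventional pig, a log2 difference of 0.30 ± 0.20. This 1.23-fold difference was just larger than the SD of repeated spots, and it fell inside it after quantile normalization, at 0.07.

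RSAD2, or viperin, is a radical SAM enzyme that makes a chain-terminating nucleotide which stops viral RNA synthesis. Its first probe gave an intensity of 88.1 for the minipig and 48.6 for the conventional pig, a log2 difference of -0.91 ± 0.22 and 1.88-fold higher on the minipig array. This was the widest difference among the member probes, and 80.5% of all probes on the arrays had a smaller one in either direction. The second probe gave intensities of 13.6 and 14.6, close to the lowest intensities well above background of 10.6 and 11.5, and a log2 difference of 0.05 ± 0.42. The 2 probes of RSAD2 did not point the same way, and the gene median of -0.43 stood between them, moving to -0.05 after loess normalization. RSAD2 lies next to CMPK2, another interferon-stimulated gene, which had no matched probe.

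EIF2AK2, or PKR, is a kinase that binds double-stranded RNA and stops translation by phosphorylating the initiation factor eIF2. Its probe gave an intensity of 615 for the minipig and 830 for the conventional pig, a log2 difference of 0.38 ± 0.20, or 1.30-fold. Under the main scaling, all 5 gene medians and 7 of the 10 probes exceeded the SD of repeated spots, as did 68.3% of all named genes and 69.3% of all probes. After quantile or loess normalization, MX2 and EIF2AK2 alone of the 5 genes did.

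**Figure D2:**
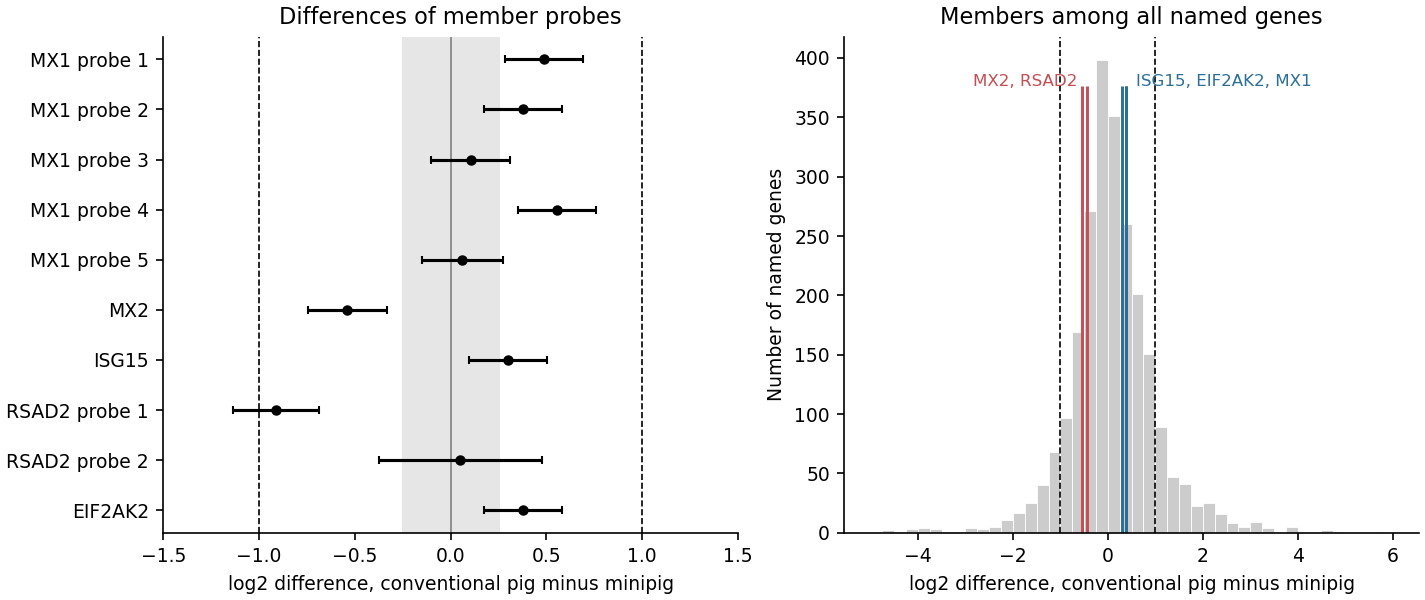
Left, log2 difference (conventional pig minus minipig) of each member probe with the error combined from those of the scanning software on both arrays, the grey band marking the SD of repeated spots (0.25) and dashed lines marking 2-fold. Right, the 5 member genes (lines, from -0.54 for MX2 to 0.38 for MX1) on the distribution of all 2363 named genes, where they lie inside the 2-fold lines, although MX1, ISG15 and EIF2AK2 change side under centring on reference genes.

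Set among all named genes, the members lay in the middle range by the size of their differences. The median log2 difference over the 5 members was 0.30, and over all named genes it was 0.04, with quartiles at -0.36 and 0.55. Of all named genes, 52.5% were higher on the conventional pig array. This share was 58.0% after quantile, 59.4% after loess and 62.7% after median scaling, and 12.2% after centring on reference genes. The median size regardless of direction was 0.38 for the members and 0.44 for all named genes. MX2 exceeded 57.1% of the named genes in the size of its difference, and ISG15, the member with the smallest one, exceeded 36.6%. The distance between the median of the members and that of all named genes was 0.26, and it was -0.04 after quantile normalization and -0.01 after loess normalization.

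**Figure D3:**
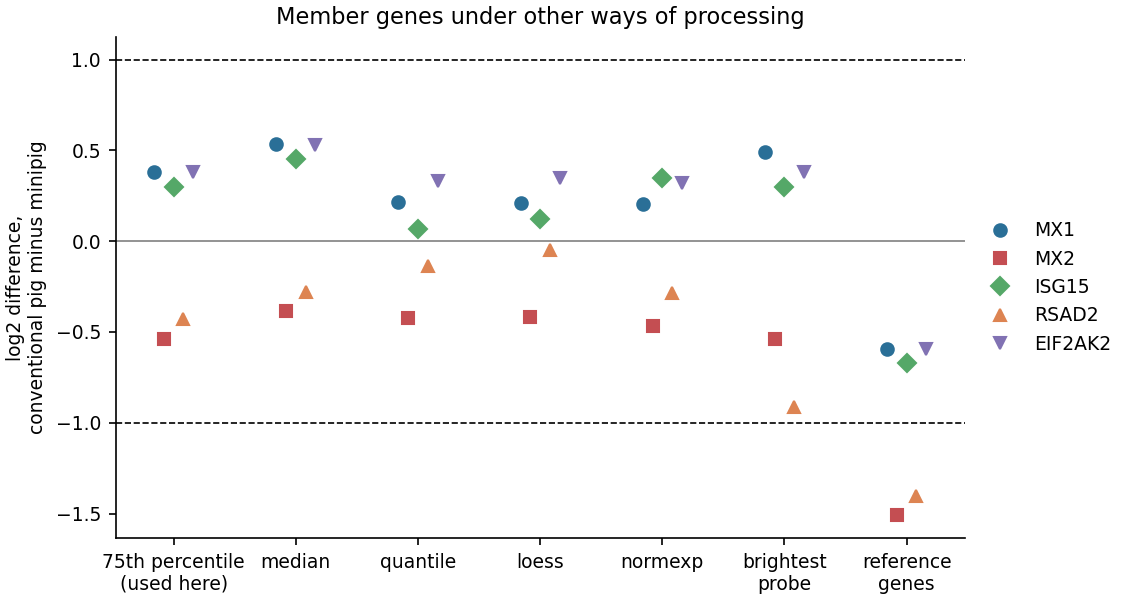
Log2 difference (conventional pig minus minipig) of the 5 member genes under 7 ways of processing, with dashed lines at 2-fold. Each gene kept its direction except under centring on reference genes, where MX1 (-0.59), ISG15 (-0.67) and EIF2AK2 (-0.59) changed sign and MX2 (-1.51) and RSAD2 (-1.40) passed 2-fold.

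Centring on reference genes was the only alternative that turned a member. Of 12 commonly used reference genes, 5 had a value, and all 5 were higher on the conventional pig array, with a median log2 difference of 0.97. Among them were B2M (1.17), the light chain of MHC class I molecules, the 14-3-3 protein YWHAZ (0.98), the prolyl isomerase PPIA (0.89) and the purine salvage enzyme HPRT1 (0.67). Their summed level, in units of the 75th percentile, was 122 for the minipig and 241 for the conventional pig, and PPIA was the brightest on both. Setting their median to 0 moved the median of all named genes to -0.94 and put 49.5% of the named genes past 2-fold. Relative to that median, the members lay at 0.27, against 0.26 under the main scaling. B2M is itself induced by interferon.

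The wider set of interferon-stimulated genes showed no common direction either. Of 58 other such genes listed, 16 had a value, and 8 were higher on each array, although none was higher on the conventional pig array after centring on reference genes. Over all named genes the share higher on the conventional pig array was 52.5%, and 12.2% after that centring. The median log2 difference of the 16 genes was 0.05. CXCL10 alone was 2-fold apart.

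CXCL10 and CXCL9 are chemokines that draw T cells and are induced above all by interferon gamma. CXCL10 had a median intensity of 343 for the minipig and 177 for the conventional pig over 2 probes, with log2 differences of -1.18 and -0.90. Their median of -1.04 was just past 2-fold, and it came inside 2-fold under 5 of the alternatives. CXCL9 had log2 levels of -2.21 and -3.15, a log2 difference of -0.95, or -0.55 under normexp background correction. The related CXCL11 was not well above background for either breed. Both chemokines with a value thus read higher on the minipig array.

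The widest difference towards the conventional pig array was that of PSMB9, though it read slightly higher on the minipig array after centring on reference genes, at -0.16. PSMB9, a catalytic subunit of the immunoproteasome, had a median intensity of 1041 for the minipig and 1883 for the conventional pig, and its 2 probes differed by 0.74 and 0.88 on the log2 scale. The other immunoproteasome subunits listed were PSMB10, with a log2 difference of 0.54, and PSMB8, with 0.37.

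OAS1 itself had no value, but relatives of it did. OAS2, which stands next to OAS1 in the annotation, was read by 5 probes with log2 differences from 0.14 to 0.76 and a median of 0.15. OASL, an oligoadenylate synthetase-like protein without synthetase activity in humans, gave intensities of 326 and 286 and a log2 difference of -0.24. The IRF7 gene, whose product drives the transcription of interferon alpha genes, differed by 0.38.

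**Figure D4:**
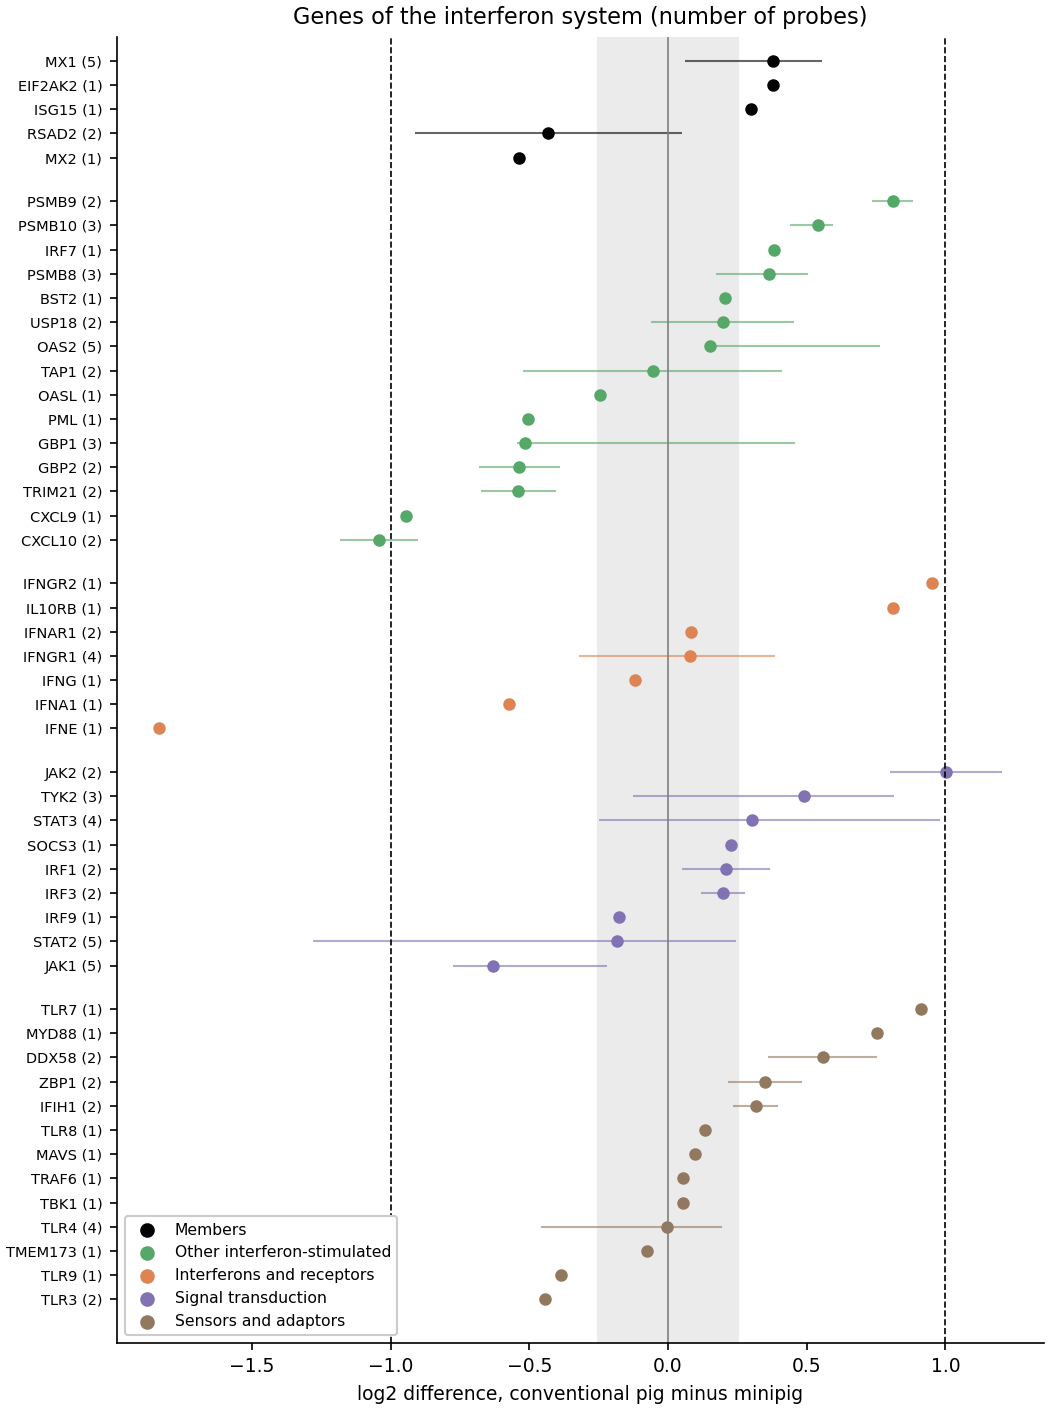
Log2 difference (conventional pig minus minipig) of genes of the interferon system, the number of probes in brackets, bars spanning the probes of a gene, the grey band the SD of repeated spots (0.25) and dashed lines 2-fold. Of 49 genes drawn, 29 were higher for the conventional pig and 20 for the minipig, where 52.5% of all named genes were higher for the conventional pig. Of those drawn, 3 were 2-fold apart (JAK2, CXCL10 and IFNE), of which JAK2 and CXCL10 come inside 2-fold under some alternatives. After centring on reference genes the directions of most genes on the right turn, and 12.2% of all named genes are then higher for the conventional pig.

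Among the interferons and their receptors, the ligands IFNE and IFNA1 read lower and the receptor chains IFNGR2 and IL10RB higher on the conventional pig array, although these chains read lower too after centring on reference genes. The medians of the other 3 genes with a value lay within the SD of repeated spots. Of 15 such genes listed, 7 had a value, with 4 higher for the conventional pig, or 5 under quantile, loess and median scaling, 3 with the brightest probe and 0 after centring on reference genes. Over all named genes this share was 52.5%, and 12.2% after centring on reference genes. The 7 genes had a median log2 difference of 0.08 that turned to -0.12 when the brightest probe stood for each gene and to -0.02 with no filter on dim probes. IFNE, an interferon made constitutively by the epithelium of the female reproductive tract under hormonal control, gave an intensity of 270 for the minipig and 78.5 for the conventional pig. This was a log2 difference of -1.84 on 1 probe, or 3.57-fold higher on the minipig array.

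The remaining interferons were dim. IFNA1 gave intensities of 40.3 and 28.1, a log2 difference of -0.57, or -0.26 under normexp. IFNG, the interferon of T and NK cells, gave 81.8 and 78.2, a log2 difference of -0.12, within the SD of repeated spots. IFNB1, the interferon beta gene, was not well above background for either breed.

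The receptor chain IFNGR2, which signals for interferon gamma, gave an intensity of 783 for the minipig and 1570 for the conventional pig, a log2 difference of 0.95. IL10RB, a chain shared by the receptors for interferon lambda and interleukin 10, gave 504 and 916, a log2 difference of 0.81. IFNGR2 passed 2-fold under normexp (1.04) and median centring (1.10), and both chains passed below 0 after centring on reference genes, to -0.02 and -0.16. IFNAR1, a chain of the receptor for interferon alpha and beta, and IFNGR1 each had a median log2 difference of 0.08, within the SD of repeated spots. The 4 probes of IFNGR1 did not share a direction and ran from -0.32 to 0.39.

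Of 20 genes listed for signal transduction from these receptors, 11 had a value, 7 of them higher on the conventional pig array, or 1 after centring on reference genes. Over all named genes the share higher on that array was 52.5%, and 12.2% after this centring. JAK2, the kinase that serves the receptor for interferon gamma, had a median intensity of 139 for the minipig and 296 for the conventional pig. Its 2 probes gave log2 differences of 0.80 and 1.20, whose median was just past 2-fold and came inside it under normexp, at 0.76, and after centring on reference genes, at 0.03. JAK1, which serves all interferon receptors, had a median intensity of 3957 and 2654, and its 5 probes all read lower on the conventional pig array, with a median log2 difference of -0.63, or -0.22 with the brightest probe. TYK2, the partner of JAK1 on the receptor for interferon alpha and beta, differed by 0.49, with probes from -0.12 to 0.81. The Janus kinases thus did not share a direction.

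STAT2 and IRF9, which act together on the promoters of the antiviral genes, showed small differences under the main scaling. STAT2 had probes from -1.28 to 0.25 and a median of -0.19. It turned to 0.23 when the brightest probe stood for the gene, and was -1.16 after centring on reference genes. IRF9 gave intensities of 658 and 604, a log2 difference of -0.18. Under the main scaling both medians lay within the SD of repeated spots.

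Sensors of nucleic acid and their adaptors, which start the production of interferon, had 13 genes with a value out of 20 listed. Of these, 9 were higher on the conventional pig array, or 0 after centring on reference genes, against 52.5% and 12.2% of all named genes. None of the 13 genes was 2-fold apart, but 1 was under median centring, quantile and loess normalization and 3 were after centring on reference genes. TLR7, a receptor for single-stranded RNA in endosomes, gave dim intensities of 15.9 for the minipig and 31.0 for the conventional pig, a log2 difference of 0.91. This difference was 1.06, 1.24 and 1.25 under median centring, quantile and loess normalization, and 0.15 under normexp. MYD88, the adaptor below it, gave 47.4 and 83.0, a log2 difference of 0.75, or 0.43 under normexp. Both turned to the minipig side after centring on reference genes, at -0.06 and -0.22.

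The cytosolic RNA sensors DDX58 (RIG-I) and IFIH1 (MDA5) differed by 0.56 and 0.32 on the log2 scale, each with both probes higher on the conventional pig array. DDX58 was dim, with median intensities of 49.4 for the minipig and 77.3 for the conventional pig, and IFIH1 gave 99.4 and 132. TLR3, the endosomal receptor for double-stranded RNA, gave intensities of 244 for the minipig and 186 for the conventional pig, a log2 difference of -0.44. TLR9, which binds DNA, gave 350 and 278, a log2 difference of -0.38. The sensors as a group had a median log2 difference of 0.10.

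Immune cells carry many of these genes, and leukocyte markers were read for comparison. Of 32 listed, 17 had a value, with a median log2 difference of 0.14. Of these, 10 were higher for the conventional pig, as were 52.5% of all named genes, and 7 for the minipig. Under normexp 8 of the markers were higher for the conventional pig and 9 for the minipig, with a median of -0.00, and after centring on reference genes the median was -0.83. Their summed level was 12.2 for the minipig and 13.4 for the conventional pig, with FCGR3A, an Fc receptor of NK cells and macrophages, the brightest on both. The pan-leukocyte marker PTPRC and the macrophage marker CD68 were matched by no probe.

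The leukocyte markers did not share a direction, and after centring on reference genes 3 of the 17 were still higher for the conventional pig. S100A12 and S100A8, calcium-binding proteins of neutrophils and monocytes, had log2 differences of 1.52 and 1.30, and the monocyte marker CD14 by 1.04. S100A9, the partner of S100A8, differed by -0.32. The T cell marker CD3E differed by 0.22, CD3G by -1.31 with a bound among its 2 probes, and the cytotoxic granule enzyme GZMB by -0.70. The part of leukocyte content in the values of the antiviral genes was not tested.

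**Figure D5:**
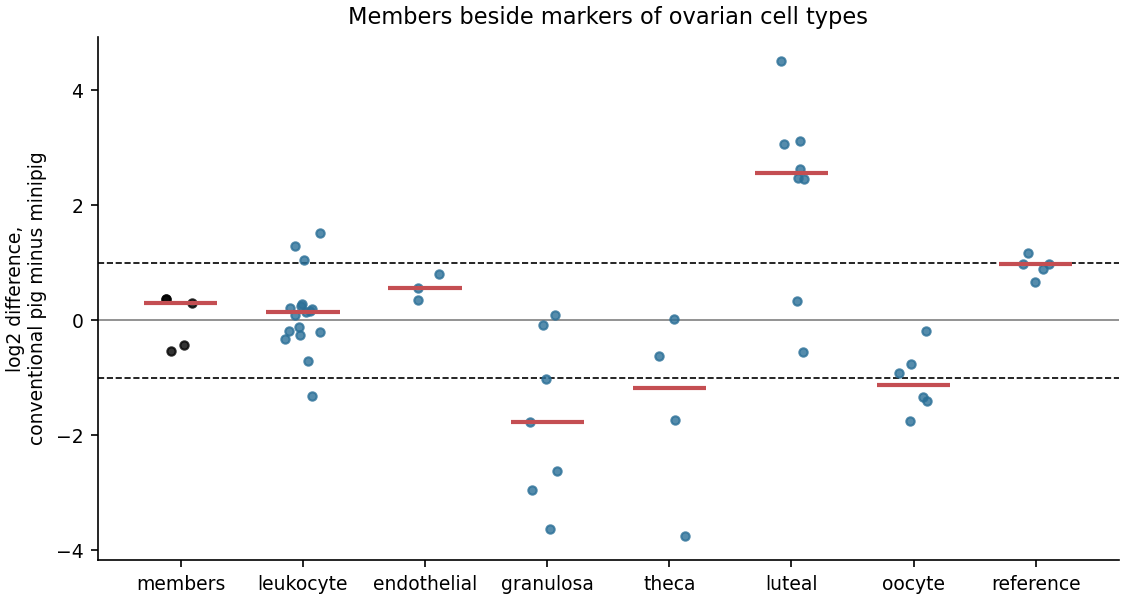
Log2 difference (conventional pig minus minipig) of each member and each marker gene with a value, 1 point per gene, with red lines at the medians and dashed lines at 2-fold. The members lie near 0 (median 0.30), while the luteal (2.55), granulosa (-1.77), theca (-1.18) and oocyte (-1.13) medians lie beyond 2-fold, the theca (-0.97) and oocyte (-0.87) medians coming inside it under normexp; centring on reference genes puts the members (-0.67), leukocyte (-0.83) and endothelial (-0.42) medians below 0.

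The medians of the luteal, granulosa, theca and oocyte markers lay further from 0 than that of the antiviral genes, though not every marker did. Luteal and steroidogenic markers had values for 8 of 9 genes, 7 of them higher for the conventional pig, and a median log2 difference of 2.55, or 6 of them and 1.58 after centring on reference genes. Their summed level, which takes the mean over the probes of a gene, was 142 for the minipig and 499 for the conventional pig. Among them, the sterol carrier SCP2 differed by 4.52 on 1 probe and HSD3B1, which makes progesterone, by 3.11. The tissue was described as free of corpora lutea, and the source of these differences was not tested. At the other end, the oxytocin gene OXT differed by 0.33 and the prolactin receptor PRLR by -0.55. By the median over its probes, the brightest luteal gene was OXT for the minipig and STAR, which moves cholesterol into mitochondria, for the conventional pig.

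Most follicular markers went the other way. Granulosa markers had values for 7 of 11 genes, 6 of them higher for the minipig, with a median log2 difference of -1.77 (-2.96 with the brightest probe and -2.74 after centring on reference genes) and a summed level of 48.5 for the minipig and 23.2 for the conventional pig, with HSD17B1 and FST the brightest, respectively. Among them were FSHR, the receptor for follicle-stimulating hormone, at -3.63 and HSD17B1, which completes oestradiol synthesis, at -2.96. FST (-0.08) lay near 0, and the aromatase gene CYP19A1 (0.09) had 2 probes that went opposite ways, at -0.34 and 0.52. Theca markers had values for 4 of 5 genes, 3 of them higher for the minipig, with a median of -1.18 (-0.97 under normexp, -0.86 with the brightest probe and -2.15 after centring on reference genes) and a summed level of 82.8 and 12.4, with the peptide hormone INSL3, at -3.76, the brightest for the minipig and LHCGR for the conventional pig. The transcription factor gene NR5A1 differed by 0.02, with probes from -0.72 to 0.75.

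Oocyte markers and endothelial markers completed the comparison. The 6 of 10 oocyte markers with a value were all higher on the minipig array, or 5 of them under normexp and with the brightest probe. They had a median of -1.13, which came inside 2-fold under normexp (-0.87), median centring (-0.97), quantile (-0.98) and loess (-0.98) normalization and was -2.10 after centring on reference genes, and a summed level of 3.76 and 1.55, and the zona pellucida protein ZP4 (-1.41) was the brightest on both. Endothelial markers had values for 3 of 8 genes, ENG (0.80), PECAM1 (0.55) and CDH5 (0.36), all higher on the conventional pig array unless centred on reference genes. Their summed level was 4.39 and 7.04, with ENG the brightest. The part of tissue composition in the values of the antiviral genes was not tested.

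The median log2 difference of the members was a common one on these arrays. Of 1158 genes with at least 2 probes, all well above background on both arrays, 310 (26.8%) lay within the SD of repeated spots of it. The 5 nearest were CDC42, SLA-DRA, NIFK, STAT3 and RPS21, all with a median log2 difference of 0.30. The probes of STAT3 ran from -0.25 to 0.98 and those of NIFK from 0.02 to 0.57. This likeness rests on 2 arrays only.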

How the data were processed

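The authors scanned the arrays with Agilent Feature Extraction 10.7.3.1 and deposited, for each spot, a processed intensity (background-subtracted, spatially detrended, not normalized between arrays), raw medians and flags. They also deposited a log2 table, which is log2 intensity minus a constant per array.

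Control spots and outlier spots (5 on the minipig array, 10 on the conventional pig array) were left out, spots of a probe were averaged as log2, and the 75th percentile of the array was subtracted. Where only 1 array was well above background, the difference is a bound against the lowest such intensity on the dimmer array, or the probe's own if higher. A gene takes the median of its probes. Accessions, without versions, were matched to the RefSeq table of Sscrofa11.1, which named 5577 of 43597 probes (12.8%). No sequence of a member was analysed here.

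The members and lists were chosen with earlier results of these data known. Lists covered other interferon-stimulated genes, interferons and receptors, signal transduction, sensors, 6 groups of cell markers and reference genes. Named by rule were all members, genes of the interferon lists past 2-fold, the 2 genes of each list with the widest difference each way (among genes with every probe well above background on both), and the 5 genes nearest the members' median. CDH5, CD14, CD3E, CD3G, CXCL11, DDX58, FCGR3A, FST, HPRT1, IFIH1, IFNAR1, IFNB1, IFNG, IFNGR1, IRF7, IRF9, LHCGR, OAS2, OASL, OXT, PPIA, PSMB8, PSMB10 and STAR were named after their values were seen. The values of some other genes are not reported here.

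Alternatives were normexp (offset 50, on median signals), median centring, quantile and loess (span 0.3) normalization, 2 filters on dim probes, outlier spots kept, the brightest probe, the deposited table, 1.5-fold and 3-fold, and, chosen after seeing the data, centring on reference genes. The steps were tested on simulated data. Normexp ran in limma 3.58.1 (R 4.3.3), loess in statsmodels 0.14.6, and the rest in pandas 2.3.3 and numpy 2.4.6 (Python 3.11.15).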

Additional observations from a re-analysis of the deposited data

How the results depend on the processing

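Over 8 alternatives to the main processing (normexp, median centring, quantile and loess normalization, brightest probe, outlier spots kept, no filter on dim probes, a filter that asked for both arrays), each member kept its direction. The log2 difference ran from 0.21 to 0.53 for MX1, from -0.54 to -0.39 for MX2, from 0.07 to 0.45 for ISG15, from -0.91 to -0.05 for RSAD2 and from 0.32 to 0.53 for EIF2AK2. The median of all named genes moved from 0.04 to 0.19 under median centring, 0.11 under quantile and 0.13 under loess normalization. The count of members past 2-fold stayed at 0 under these 8. The 1.5-fold cutoff was applied to the main processing only, where 1 member probe passed it.

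Centring on reference genes, chosen after seeing the data, subtracted 0.97 from each measured difference. It put 2 member genes and 2 member probes past 2-fold, moved the median over the members to -0.67 and that of the other interferon-stimulated genes to -0.92, and put 8 of the latter past 2-fold. The number of other interferon-stimulated genes past 2-fold was 0, in place of 1, under normexp, median centring, quantile normalization, loess normalization and the brightest probe. Their median turned to -0.05 with no filter on dim probes. The cause of these changes was not tested.

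In the deposited log2 table CXCL10 (1.19), IFNE (1.84) and JAK2 (-1.20) were reversed and STAT2 (1.28, against -0.19) changed sign too, the table naming the arrays the other way round and holding 1 probe of each of these genes (of 2 for CXCL10 and JAK2, and of 5 for STAT2). The table holds none of the members' probes and so gave no member value. Of 319 alternative values, 248 stayed within the SD of repeated spots (for counts, within 1.5 times) of the main value, and the rest moved further. The sign changed for 24 values, 16 of them under centring on reference genes, 4 in the deposited table and 4 under the other alternatives. Signal over background limits RSAD2 probe 2, TLR7 and other dim probes, and 1 array per breed limits every difference.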
